A study of Homo sapiens with 4 samples.

Results

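The genes described here encode 7 intermediate filament proteins of nerve cells and their precursors, measured by RNA sequencing of SK-N-BE(2) cells with and without METTL14 knockdown. They were taken by symbol from the 60671 gene rows of the count table. A set of 5 belongs to neurons (NEFL, NEFM, NEFH, INA and PRPH) and a set of 2 to progenitor or mesenchymal cells (NES and VIM). The sets were formed with the METTL14 knockdown contrast already known, so the values of these genes in that contrast are given as a description: calls are counted beside those of all genes, and no p-value is given. All 7 passed the filter on low counts that left 16309 genes for testing.

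SK-N-BE(2) is an established human neuroblastoma line. The 4 libraries comprised 2 from cells with a scramble hairpin RNA (shNC) and 2 from cells with a hairpin against METTL14 (shMETTL14); every library came from the same line. Hairpins were delivered in the pLKO.1 lentiviral vector and infected cells were selected with puromycin, the methods list more than one METTL14 hairpin, and the labels do not state which was sequenced. METTL14 is a subunit of the enzyme complex that writes N6-methyladenosine (m6A) on RNA. Nothing in the labels says that the libraries of a group came from separate cultures, so errors and p-values cover only the spread between these libraries.

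Intermediate filaments are rope-like polymers that give a cell tensile strength. In mature neurons the light, medium and heavy neurofilament subunits (NEFL, NEFM and NEFH) co-assemble with alpha-internexin (INA) or peripherin (PRPH) and fill the axon, where they set its calibre. Precursor cells use nestin (NES), which co-assembles with vimentin (VIM), the filament of mesenchymal and many cultured cells, and developing neurons pass from the second kind of filament to the first.

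Depth was even, between 18925786 and 19886214 counts in genes per library. METTL14, counted 753 and 754 times in shNC and 303 and 321 times in shMETTL14, was at 41.7% of its control level (log2 fold change -1.26, SE 0.0832, edgeR adjusted p 3.6e-11). All 10 neuroblastoma markers examined could be tested, and their summed level in CPM (counts scaled to a common library size, with TMM factors) was 5053 and 4993 in shNC and 5204 and 5272 in shMETTL14. Without MYCN the other 9 summed to 2416 and 2397 CPM in shNC and 2052 and 2078 CPM in shMETTL14. Of these markers 2 rose (MYCN at 0.28 and ISL1 at 0.28) and 7 fell, among them DBH (-0.79) and TH (-0.38), whose edgeR adjusted p-values were 5.54e-12 and 2.67e-07. The median log2 fold change of all 10 was -0.23. By the same call, an edgeR adjusted p under 0.05, 27.2% of all tested genes rose and 25.3% fell.

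The 5 neuronal filament genes were higher in both shMETTL14 libraries than in both shNC libraries, by 1.54-fold to 2.28-fold, whereas VIM differed by less than the spread between libraries and NES lay between. In the fit over all genes, 5 of 5 neuronal members and 1 of 2 others (NES) had an adjusted p under 0.05 and a higher level. Across all tested genes 52.5% were called in either direction, 27.2% higher and 25.3% lower. A rise of at least 2-fold was seen in NEFM, NEFH and INA, against 2.8% of all genes that were called with such a rise. Groups did not overlap for 6 of 7 members, where 75.5% of all genes had groups that did not overlap. Since the members were picked on this contrast, nothing is read from these shares. In bulk RNA, more cells of a filament-rich kind and more RNA per cell cannot be told apart.

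Start regions were available for INA, PRPH, NES and VIM, that is for 4 of 7 members, from RefSeq on GRCh38.p14. They are shown to set the letters at the starts of INA and PRPH (log2 fold changes 1.10 and 0.65) beside those of NES (0.36) and VIM (0.03). Each line holds 80 bases before and 20 bases from the annotated start, 5′ to 3′ on the strand of the gene. Capitals mark matches to a TATA box (the letters TATAAA on that strand), a GC box (GGGCGG), the CCAAT word, an AP-1 word (TGANTCA) or a cAMP response core (TGACG), each of the last 4 on both strands. The regions are chr10:103277058-103277157 (plus) for INA, chr12:49295067-49295166 (plus) for PRPH, chr1:156677388-156677487 (minus) for NES and chr10:17228161-17228260 (plus) for VIM.
INA: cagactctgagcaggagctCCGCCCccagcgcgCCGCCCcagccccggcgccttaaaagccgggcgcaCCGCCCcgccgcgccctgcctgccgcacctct
PRPH: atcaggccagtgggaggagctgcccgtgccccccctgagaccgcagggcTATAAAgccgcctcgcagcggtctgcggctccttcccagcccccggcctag
NES: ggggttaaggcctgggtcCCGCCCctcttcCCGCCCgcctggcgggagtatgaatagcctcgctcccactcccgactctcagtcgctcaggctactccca
VIM: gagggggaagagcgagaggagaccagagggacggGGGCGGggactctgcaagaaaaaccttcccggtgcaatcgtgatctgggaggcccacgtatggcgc

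The 4 start regions share no such word. In windows of 250 bases before and 50 after the start, a GC box occurred 4 times in INA, 4 times in NES and 1 time in VIM but not in PRPH, and 45.0% of all 35116 windows hold one. PRPH alone had a TATA box, 31 bases before its start, as do 7.33% of windows. CCAAT (34.6% of windows) and the AP-1 word (7.71%) were in none of the 4, and TGACG (24.6%) was in NES only. Parts of the element bound by REST, a repressor of neuronal genes, were searched as AGCACC and GGACAG on both strands. AGCACC was in PRPH and NES and in 15.9% of windows, and GGACAG was in INA and in 20.5%. A match to such short words is a description of the letters only.

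The 5-base word GGACT, a frequent context of m6A, was then counted in the longest coding transcript of each member. Over 12788 tested genes with such a transcript the median was 0.938 words per kilobase, with quartiles of 0.568 and 1.40. INA had 1 word and PRPH 1 word, or 0.310 and 0.308 per kilobase, below that range. NEFL with 1 word (0.245 per kilobase) was also below it. VIM with 2 (0.937), NES with 5 (0.900) and NEFH with 4 (1.06) were near the median, and NEFM with 6 (1.49) was above the upper quartile. No m6A measurement was analysed here.

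For 5 members the GGACT word nearest to the end of the coding sequence is shown with 10 bases on each side, the word in capitals, since that end is where m6A is often found. In NES its last letter is the first base of the stop codon in exon 4 (chr1:156669314-156669338, minus). In NEFH it lies 498 bases after the last coding base in exon 4 (chr22:29491186-29491210, plus). In INA it is within the coding part of exon 2 (chr10:103287099-103287123, plus), and likewise in VIM (exon 2, chr10:17229664-17229688, plus). In PRPH it is in exon 1 of the GENCODE transcript, before the coding sequence (chr12:49294856-49294880, plus), and upstream of the RefSeq start used for the start region.
NES: cctcaggggaGGACTaggaaaagac
NEFH: gtggggccggGGACTggccactgaa
INA: gggaataccaGGACTtgctcaatgt
VIM: aggactcggtGGACTtctcgctggc
PRPH: caattttcagGGACTctagttcaag

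**Figure D1:**
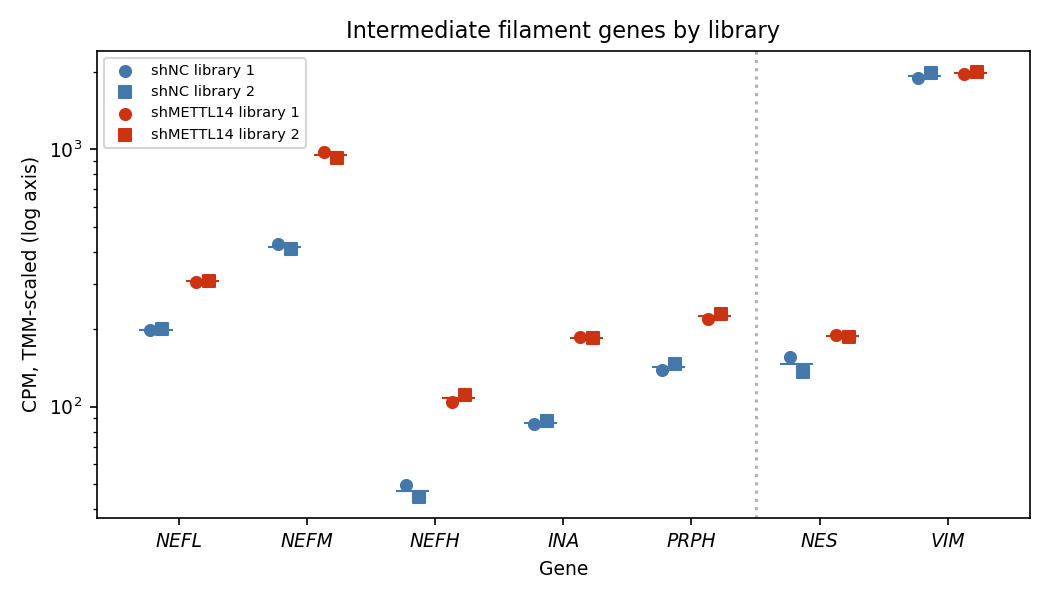
CPM of each filament gene in each library on a log axis; circles and squares are library 1 and library 2 of a group, short lines are group means, and the dotted line parts neuronal from progenitor or mesenchymal members. The red shMETTL14 points lie above the blue shNC points for every gene except VIM, where they overlap.

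NEFL, the light subunit on which neurofilaments are built, was counted 3951 and 3840 times in shNC and 5977 and 5939 times in shMETTL14. These counts gave 199 ± 1.63 CPM and 307 ± 2.35 CPM (SD, n = 2 each), a log2 fold change of 0.62 (SE 0.0394). Replicates of NEFL differed by far less than its groups did.

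NEFM, the medium subunit whose long tail projects from the filament, was the most abundant neuronal member. Its counts were 8517 and 7871 in shNC and 19068 and 17844 in shMETTL14. Mean levels of 419 ± 11.5 CPM in shNC and 951 ± 33.0 CPM in shMETTL14 (SD, n = 2 each) gave a log2 fold change of 1.18 (SE 0.0393). Of all tested genes, 2.06% had a higher fold change than NEFM and 0.809% had a higher mean level, so it combined a large change with a very high level.

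NEFH, the heavy subunit that is added last as axons mature, was the least abundant member. It was counted 988 and 856 times in shNC and 2035 and 2142 times in shMETTL14. The means of 47.1 ± 3.44 CPM and 108 ± 5.21 CPM (SD, n = 2 each) differed by 1.19 on the log2 scale (SE 0.0571). In spite of its lower level and wider replicate spread, NEFH matched NEFM in fold change.

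INA, the internexin of central neurons that can replace or join the neurofilament subunits, had 1709 and 1679 counts in shNC and 3658 and 3544 counts in shMETTL14. INA averaged 86.7 ± 1.37 CPM in shNC and 185 ± 1.89 CPM in shMETTL14 (SD, n = 2 each), with a log2 fold change of 1.10 (SE 0.0440). INA thus stood nearer to NEFM and NEFH than to NEFL in the size of its change. Its confidence interval overlapped theirs, which does not show equal changes. The ratio of NEFM to INA counts was higher in both shMETTL14 libraries (5.21 and 5.04) than in both shNC libraries (4.98 and 4.69).

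PRPH, the filament of peripheral and autonomic neurons and therefore of the sympathetic lineage, had 2768 and 2802 counts in shNC and 4287 and 4421 counts in shMETTL14. PRPH averaged 143 ± 5.27 CPM in shNC and 224 ± 7.61 CPM in shMETTL14 (SD, n = 2 each), with a log2 fold change of 0.65 (SE 0.0437). The 95% interval for PRPH, 0.56 to 0.74, overlapped that for NEFL, 0.54 to 0.70, and both ended below the intervals for NEFM (1.10 to 1.26), NEFH (1.07 to 1.31) and INA (1.01 to 1.19). Because the members were picked on this contrast, these intervals describe the spread between libraries and are not a test.

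NES, the nestin of neural precursors, was counted 3123 and 2614 times in shNC and 3713 and 3581 times in shMETTL14. NES averaged 147 ± 14.3 CPM in shNC and 188 ± 2.52 CPM in shMETTL14 (SD, n = 2 each), with a log2 fold change of 0.36 (SE 0.0510). The shNC libraries of NES stood apart, at 157 and 137 CPM, although both lay below the shMETTL14 libraries at 190 and 186 CPM. Without shNC library 1 the log2 fold change of NES was 0.46 and without shNC library 2 it was 0.27, and NES was called higher in both cases.

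VIM, the vimentin of mesenchymal cells, was the most abundant member, with 37862 and 37814 counts in shNC and 38369 and 38510 in shMETTL14. Its means of 1937 ± 53.1 CPM and 1980 ± 29.2 CPM (SD, n = 2 each) differed by 0.03 on the log2 scale (SE 0.0353, 95% interval -0.04 to 0.10). The groups of VIM overlapped, and its interval ended below that of every neuronal member. The sets were formed with this contrast known, so that gap is a description and not a test. A log2 change of VIM beyond 0.10 upward is outside the interval at this depth, which was the highest of the set. The sign of VIM depended on scaling: it was -0.04 with upper quartile scaling and -0.01 with library size alone.

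**Figure D2:**
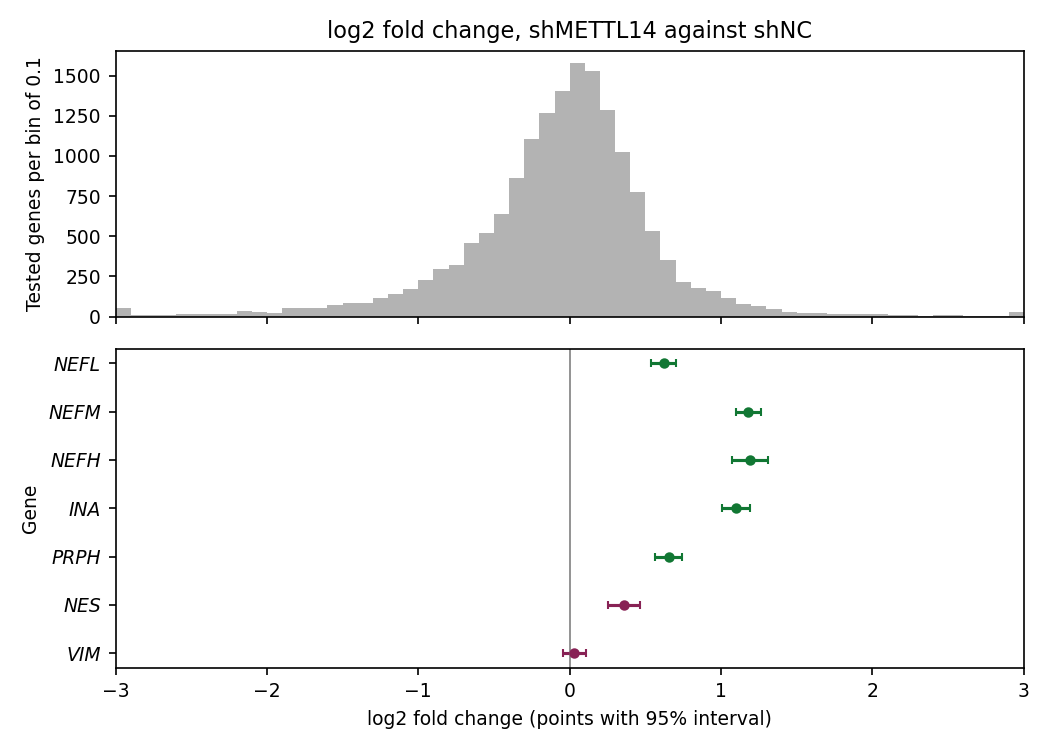
Upper panel, number of tested genes per bin of 0.1 in log2 fold change, with genes beyond the axis drawn in the end bars; lower panel, log2 fold change of each filament gene with its 95% interval, green for neuronal and purple for progenitor or mesenchymal members. NEFM, NEFH and INA lie between 1.10 and 1.19, NEFL and PRPH at 0.62 and 0.65, NES at 0.36 and VIM at 0.03.

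The neurofilament subunits did not change in proportion. The ratio of NEFM to NEFL counts, in which gene length cancels between libraries, was 2.16 and 2.05 in shNC and 3.19 and 3.005 in shMETTL14, a 1.47-fold increase. The ratio of NEFH to NEFL counts went from 0.250 and 0.223 to 0.340 and 0.361, a 1.48-fold increase. The ratio of NEFH to NEFM counts was 0.116 and 0.109 in shNC and 0.107 and 0.120 in shMETTL14, so that its groups overlapped. The ratio of PRPH to NEFL counts was likewise close in all 4 libraries, from 0.701 to 0.744. The ratio of NEFM to INA counts was 4.98 and 4.69 in shNC and 5.21 and 5.04 in shMETTL14, a 1.06-fold increase.

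Levels were compared between genes per kilobase of exon, as CPM divided by the summed length of all annotated exons. In shNC the order was VIM (376 ± 10.3 CPM per kilobase), NEFM (95.7 ± 2.63), NEFL (46.1 ± 0.377), PRPH (32.8 ± 1.21), INA (26.8 ± 0.424), NES (26.4 ± 2.57) and NEFH (12.5 ± 0.910), as mean ± SD of 2 libraries. Within that order INA and NES did not differ beyond their spread. In shMETTL14 the order was VIM (384 ± 5.67 CPM per kilobase), NEFM (217 ± 7.54), NEFL (70.9 ± 0.543), INA (57.4 ± 0.586), PRPH (51.5 ± 1.75), NES (33.8 ± 0.454) and NEFH (28.4 ± 1.38). INA moved past PRPH in this order, but with the length of the longest coding transcript in place of all exons PRPH stayed above INA in both groups, so that step depends on the transcripts assumed. NEFM remained the leading neuronal subunit and NEFH the last by either length.

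As a share of the summed per-kilobase level of the 7 genes, the neuronal members made up 35.1% and 34.3% in shNC and 50.9% and 50.04% in shMETTL14. NEFM gained most of that, from 15.96% and 15.1% to 26.4% and 25.1%, while the share of VIM went from 60.2% and 61.7% to 45.1% and 46.0% at a nearly constant VIM level. The log2 ratio of the neuronal to the NES plus VIM level was -0.91 ± 0.0380 in shNC and 0.03 ± 0.0331 in shMETTL14 (SD, n = 2 each), a difference of 0.94. With transcript length in place of exon length VIM was divided by 2135 in place of 5158 bases, and the neuronal share was 20.2% in shNC and 32.7% in shMETTL14. The difference in log2 ratio was 0.94 with this length too. Each length is the same in all libraries and largely cancels in that difference, so this value is no separate check.

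**Figure D3:**
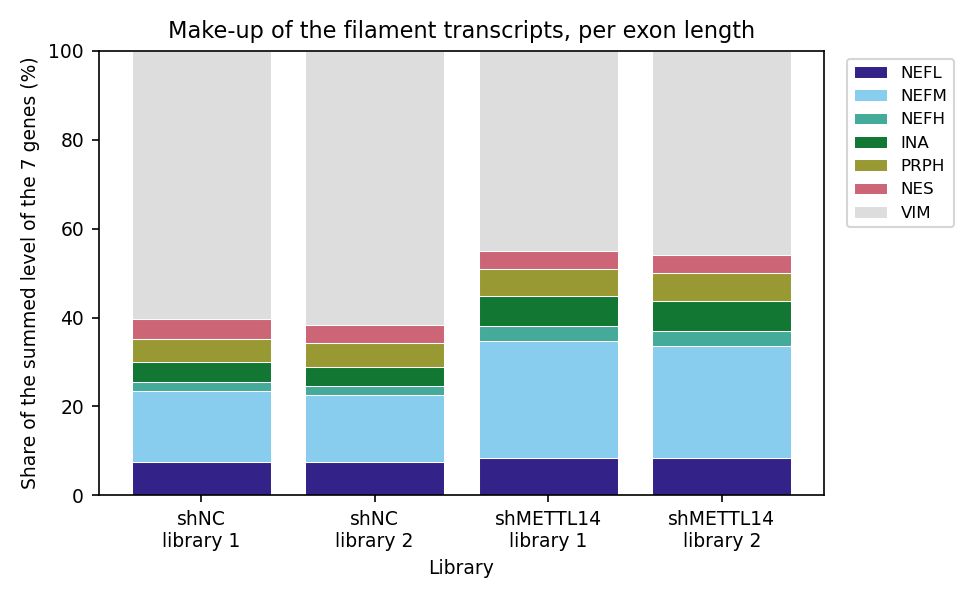
Stacked bars of the share of each gene in the summed level of the 7 filament genes, in CPM per kilobase of exon, for each of the 4 libraries. The 5 neuronal members together take 35.1% and 34.3% of the bars in shNC and 50.9% and 50.04% in shMETTL14, and NEFM widens most.

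On GRCh38 with GENCODE 29, NEFM (ENSG00000104722, plus strand, 24913012 to 24919098) and NEFL (ENSG00000277586, minus strand, 24950955 to 24957110) sit on chromosome 8 with 31856 bases between them. They are neighbours that rose by unlike amounts. NEFH (ENSG00000100285, plus strand) spans 29480230 to 29491390 of chromosome 22. INA (ENSG00000148798, plus strand) spans 103277163 to 103290351 of chromosome 10, and VIM (ENSG00000026025, plus strand) 17228259 to 17237593 of the same chromosome. PRPH (ENSG00000135406, plus strand) spans 49293252 to 49298686 of chromosome 12, and NES (ENSG00000132688, minus strand) 156668763 to 156677397 of chromosome 1. The longest coding transcripts of NEFM and INA have 3 exons, those of NEFL, NEFH and NES have 4, and those of PRPH and VIM have 9 and 10.

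INA and NES overlap no other annotated gene. The other members are crossed by antisense genes, and because the strand setting of the counting was not stated, reads in the shared exons cannot be assigned with certainty to either gene. NEFM shares 1706 exon bases with AF106564.1, whose counts of 249 and 264 in shNC and 375 and 340 in shMETTL14 rose with NEFM (log2 fold change 0.49, SE 0.102, edgeR adjusted p 3.71e-04). VIM shares 641 exon bases with VIM-AS1, which was not called at 0.04 (counts between 564 and 664). It also shares 619 bases with AL133415.1, which had 45 counts or fewer per library and rose by 0.74 (edgeR adjusted p 0.0483). PRPH shares 2445 exon bases with AC125611.4, NEFL 490 with AC107373.2 and NEFH 333 with AC000035.1, which had at most 88 counts per library and were not called. All antisense counts were small beside those of the member they cross, but they do not show how many reads in shared exons were left unassigned. The levels per kilobase divided by all annotated exons, shared ones included.

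The other genes that act on these filaments were described from lists. Over all lists, 30 of 151 genes share exon bases with another coding gene, so that their counts are less certain. For each list the count called is read beside the 52.5% of all genes that were called and beside a median log2 fold change of -0.001 over all tested genes. Of 18 other intermediate filament genes 11 could be tested, 4 rose and 1 fell, with a median of 0.09, and this share of 45.5% called was near that of all genes. SYNM, which encodes synemin, a partner of vimentin and neurofilaments, rose from 993 and 992 counts to 1347 and 1402 (log2 fold change 0.48, SE 0.0567, edgeR adjusted p 3.13e-07). IFFO1 (0.49) and the nuclear lamin LMNB1 (0.21) rose and the lamin LMNB2 (-0.19), which overlaps TIMM13, fell, with edgeR adjusted p-values from 2.25e-05 to 7.97e-04. The epidermal keratin KRT10 rose from 316 and 255 counts to 355 and 380 (0.37, edgeR adjusted p 0.00449). GFAP of astrocytes had 9 to 21 counts, and the epithelial keratins KRT8 and KRT18 had at most 15, and these 2 overlap each other. DES, SYNC, KRT7, KRT18, KRT80, KRT222 and BFSP2 were too weakly expressed to test, and KRT222 had no count in any library.

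Of 17 genes that link filaments to other structures or degrade them, 15 were tested, 7 rose and 2 fell (median 0.06). STUB1, a chaperone-linked ubiquitin ligase that overlaps JMJD8 on the other strand, rose by 0.43, and so did PLEC, the plectin that cross-links intermediate filaments (edgeR adjusted p 1.89e-07 and 5.15e-06). EVPL (-1.17) and CAPN1 (-0.19) fell, but neither was called with DESeq2. DSP and CRYAB were too weakly expressed to test.

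All 22 kinase and phosphatase genes were tested, of which 11 rose and 4 fell (median 0.19). CDK5, a kinase that phosphorylates the tails of NEFM and NEFH, rose from 725 and 719 counts to 1178 and 1208 (log2 fold change 0.73, SE 0.0622, edgeR adjusted p 2.06e-09), though it overlaps SLC4A2 on the other strand. PPP2CA, the catalytic subunit of the phosphatase PP2A, rose by 0.60 and PAK1 by 0.40 (edgeR adjusted p 2.45e-10 and 1.33e-07). MAPK10, the neuronal JNK, fell by 0.82 on the log2 scale, from 661 and 528 counts to 344 and 324 (edgeR adjusted p 2.25e-07), and it shares 999 exon bases with ARHGAP24 and 311 with PTPN13. The mitotic kinases PLK1 (-0.31) and CDK1 (-0.18), which phosphorylate vimentin or nestin in dividing cells, were lower (edgeR adjusted p 4.22e-06 and 9.87e-04).

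Among 10 transport genes, 5 rose and 2 fell (median 0.24), and 4 of the 10 were called with DESeq2. KIF5C, a kinesin heavy chain, rose from 2275 and 2157 counts to 5402 and 5394 (log2 fold change 1.29, SE 0.0415, edgeR adjusted p 3.06e-16). DYNC1I1, the neuronal dynein intermediate chain, rose from 67 and 59 counts to 378 and 298 (2.43, SE 0.150, edgeR adjusted p 1.31e-11), and the kinesin light chain KLC2 rose by 0.92. KIF5A, the kinesin motor best known for carrying neurofilaments, was instead lower at -0.20, as was DCTN1 at -0.12 (edgeR adjusted p 1.96e-03 and 0.0244), and neither was called with DESeq2.

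Of 9 genes for proteins that bind neurofilament mRNA, 7 rose and 0 fell (median 0.19). At an unadjusted p under 0.05 0 of the 9 were lower, and DESeq2 called 0 lower. With library size alone and with upper quartile scaling, 5 were called higher and 1 lower, where the log2 fold change of HNRNPD was -0.10 and -0.13, against -0.06 with TMM. ELAVL3, a neuronal RNA-binding protein that stabilises target mRNAs, rose from 1861 and 1632 counts to 3844 and 3747 (log2 fold change 1.13, SE 0.0473, edgeR adjusted p 2.17e-14), and it shares 256 exon bases with AC008481.3. ARHGEF28, whose product binds NEFL mRNA, rose by 0.54, and ELAVL2 by 0.62 (edgeR adjusted p 6.83e-09 and 3.31e-07). TARDBP, which encodes the RNA-binding protein TDP-43, was at 0.15 and lost its call with DESeq2 and under both library size and upper quartile scaling.

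Of 17 transcriptional regulators 15 were tested, of which 3 rose and 6 fell (median 0.0070). SP1, a factor that binds GC boxes, fell from 8192 and 7687 counts to 3473 and 3434 (log2 fold change -1.19, SE 0.0397, edgeR adjusted p 5.02e-16). FOS, a part of AP-1, fell by 0.82 on the log2 scale (edgeR adjusted p 1.41e-13). REST was at 616 and 590 counts in shNC and 298 and 253 in shMETTL14, a log2 fold change of -1.12 (SE 0.0914, edgeR adjusted p 1.11e-09), and it shares 23 exon bases with NOA1. SOX11 (0.41) and ISL1 (0.28) rose, as did HDAC1 (0.12), which was not called under 5 of the 7 alternatives that kept all libraries. POU4F1 and POU3F2 were too weakly expressed to test. Whether any of these regulators had a part in the filament changes was not tested.

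**Figure D4:**
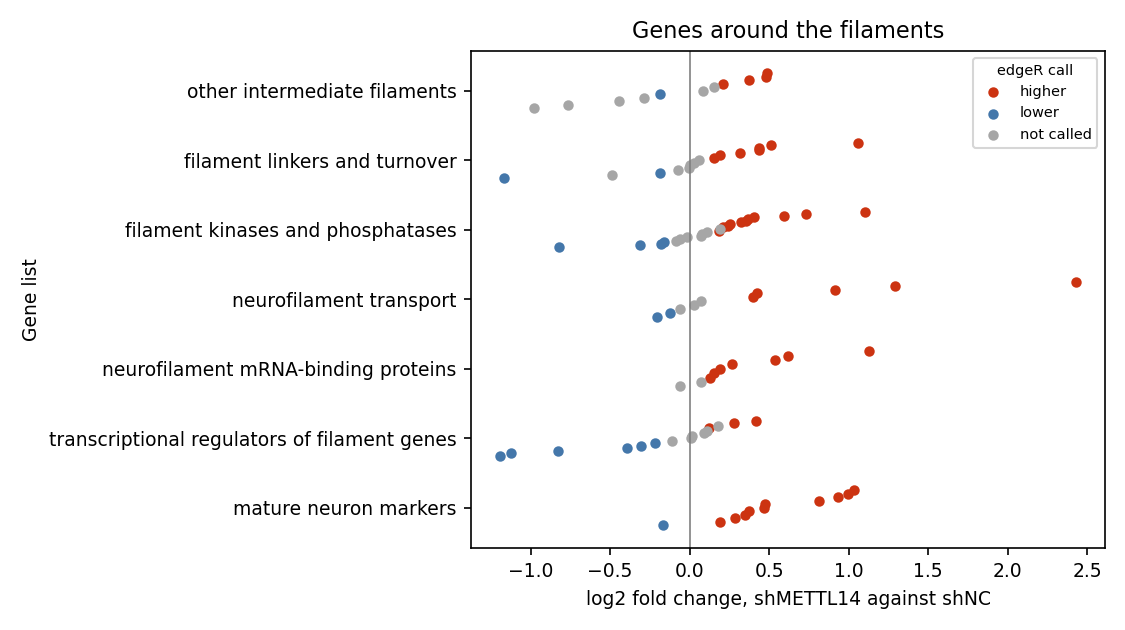
Log2 fold change (shMETTL14 against shNC) of each tested gene in 7 gene lists, red where called higher, blue where called lower and grey where not called by edgeR. Mature neuron markers and neurofilament mRNA-binding proteins lie mostly to the right, with 10 of 11 and 7 of 9 genes called higher, while the regulators SP1 and REST lie to the left at -1.19 and -1.12.

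Markers of cell state were set beside the filaments. Of 12 mature neuron markers 11 were tested, 10 rose and 1 fell (median 0.47), and their summed level was 2242 and 2254 CPM in shNC and 2920 and 2894 CPM in shMETTL14. MAP2, the dendritic microtubule protein, rose from 1643 and 1666 counts to 3349 and 3398 (log2 fold change 1.04, SE 0.0459, edgeR adjusted p 5.58e-14). DCX (0.93) and GAP43 (0.47), proteins of growing neurites, also rose (edgeR adjusted p 1.59e-12 and 2.30e-09). The 1 lower marker was SNAP25 at -0.17, which was not called with DESeq2, and RBFOX3, which encodes the mature neuronal protein NeuN, was too weakly expressed to test at 4 counts or fewer. The fitted changes of NEFM, NEFH and INA lay above that of MAP2, the highest of these markers by fitted change. Those of NEFL and PRPH lay below that of MAP2. The interval for MAP2, 0.94 to 1.13, overlapped those for NEFM (1.10 to 1.26), NEFH (1.07 to 1.31) and INA (1.01 to 1.19). The wider interval for the marker TUBB3, 0.64 to 1.36, covered all of these. Because the members were picked on this contrast, this order is a description and not a test.

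Progenitor and mesenchymal markers, which would share cells with NES and VIM, were mixed. Of 7 tested progenitor markers 1 rose (MSI1 at 0.47) and 2 fell, and SOX2, which is used with NES to mark neural precursors, was not called at 0.18 (SE 0.109). FABP7 went from 301 and 329 counts to 3 in each shMETTL14 library, and SOX9 (-0.26) was not called with DESeq2. NOTCH1 was too weakly expressed to test. Of 11 tested mesenchymal markers 5 rose, among them LGALS1 (0.84) and FN1 (0.46), and 6 fell, among them ZEB1 (-0.63) and SNAI2 (-0.56), all 4 with edgeR adjusted p-values of 3.6e-05 or less. FOSL1 (1.39) rose and CD44 (-0.15) fell, the latter not called without shMETTL14 library 1. DESeq2 called 6 of the 11. Their summed level was 1117 and 1124 CPM in shNC and 1194 and 1247 CPM in shMETTL14, and PRRX1 was too weakly expressed to test. VIM itself, at 1900 to 2001 CPM per library, exceeded that sum.

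Markers of cells that a culture could hold besides neuroblastoma were also read. Schwann cell markers summed to 5.82 CPM or less in every library, with SOX10 at 0 in all. SOX10 and ERBB3 were too weakly expressed to test, and S100B (70 and 59 counts in shNC, 33 and 50 in shMETTL14) was called lower by edgeR but not by DESeq2. Fibroblast markers summed to 644 and 646 CPM in shNC and 763 and 775 CPM in shMETTL14. THY1 alone was at 218 and 219 CPM in shNC and 363 and 366 CPM in shMETTL14. That is a larger rise than that of the sum, so the other markers together did not rise. Of these 7, THY1, which neurons also express, rose by 0.74, COL1A2 (at most 18 counts) rose, and PDGFRA (-2.13, sharing 1533 exon bases with AC058822.1), COL1A1 (-0.48) and PDGFRB (-0.19) fell, while LUM and DCN were not called. DESeq2 called neither COL1A1 nor COL1A2, and PDGFRB was not called without shMETTL14 library 2. The part of such cells in the VIM level was not tested.

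Last, the genes closest to each member in profile were sought among 8332 protein-coding genes outside the lists, by the distance between centred log2 CPM values over the 4 libraries. For NEFL the nearest were UBE2N (distance 0.0094) and PRCC (0.0110). For NEFM the nearest were RELL2 (0.0473) and SPRY2 (0.0506), for NEFH CCNE2 (0.0694), and for INA DPYSL3 (0.0208) and ARHGEF6 (0.0265). For PRPH they were GRWD1 (0.0063) and PXYLP1 (0.0176), for NES WDR4 (0.0334) and TBPL1 (0.0337), and for VIM KAT5 (0.0064) and USP3 (0.0077). With 4 libraries in 2 groups, nearness measures little more than a like fold change and a like offset between replicates.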

How the data were processed

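RNA of 4 SK-N-BE(2) libraries was sequenced as 150 bp pairs. The authors deposited raw counts per gene; the submitters' processing notes name HISAT2 2.1.0, StringTie 1.3.6, HTSeq 0.13.5, edgeR and GRCh38, while the annotation release and strand setting are not given in the sources used here. The 5 lines of unassigned reads (19.1% to 19.9% of counts) were left out. Counts were fitted for all genes kept by filterByExpr with edgeR 4.0.16 (TMM, quasi-likelihood test, Benjamini-Hochberg adjustment, threshold 0.05), with no covariate. The SE was derived from that fit as the absolute log2 fold change divided by the square root of the F statistic. The 95% intervals were t intervals built from this SE, so both restate the test. The fit was tested on simulated data. With 2 libraries against 2, an exact permutation test cannot go below 0.333, so none is given.

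The members and the gene lists were chosen with earlier results of these data known. Genes named are the members, METTL14, REST, up to 3 called genes per list and direction with the smallest adjusted p, genes too weak to test and the nearest 2 profiles. Some genes that this rule names are not reported here. GFAP, KRT8, KRT10, HNRNPD, TARDBP, TUBB3, SOX2, LUM, DCN and the antisense genes were named after their values were seen. Alternatives were DESeq2 1.42.0, other scalings and filters, a replicate block, other lengths and leaving out each library.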

Additional observations from a re-analysis of the deposited data

How the results depend on the processing

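The 5 neuronal members and NES were called higher, and VIM was not called, under all 11 alternatives to the fit. Over these the log2 fold change ranged from 0.55 to 0.64 for NEFL, 1.11 to 1.22 for NEFM, 1.12 to 1.26 for NEFH, 1.03 to 1.12 for INA, 0.59 to 0.70 for PRPH, 0.27 to 0.46 for NES and -0.04 to 0.06 for VIM. With DESeq2 the number of all genes called was 5546 in place of 8561, the number of all genes called lower was 2412 in place of 4123, and the calls fell to 4 of the transport genes, 6 mesenchymal, 3 fibroblast and 0 Schwann cell markers. Without a filter on low counts 0 Schwann cell markers were called. Leaving out 1 library gave 7 to 9 mesenchymal, 3 to 5 fibroblast and 0 to 1 Schwann cell markers; the count of 7 came without shMETTL14 library 1, shMETTL14 library 2 or shNC library 1, and that of 3 without shMETTL14 library 2. Of called genes 51.8% were higher with TMM, 44.9% with library size alone and 41.7% with upper quartile scaling. The cause of these shifts was not tested.

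No pairing by replicate number was seen: deviations of same-numbered libraries correlated at -0.0018 (Pearson) and 0.022 (Spearman) over the tested genes. Such values cannot exclude a pairing, which the labels do not state. Under the replicate block the number of all genes called was 8926, more than the 8561 without it, and the log2 fold changes of NES, PRPH and VIM were 0.36, 0.65 and 0.03.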
